A study of Drosophila melanogaster with 11 samples.

Results

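The nuclear genes for the respiratory chain were followed in single-cell Drop-seq libraries of the Drosophila melanogaster wing imaginal disc. Members were all rows whose symbol starts with ND-, COX, ATPsyn, UQCR or Sdh, which gave 8 of the 16503 genes listed: ATPsyn-b, ATPsyn-Cf6, ATPsyn-d, ATPsyn-beta, ATPsyn-gamma, SdhA, SdhB and SdhC. The count tables carry older gene symbols, so most genes of the respiratory chain stand under other names (CoVa for COX5A, CG4769 for Cyt-c1). Their RefSeq names were therefore resolved, and the 71 subunits of the chain found in this way, the 8 members included, are described after the members. A further 27 listed genes resolved to paralogs of low level (25), the assembly factor Sdhaf3 and bor. The 25 paralogs summed to at most 45.4 in myoblasts and 40.0 in epithelium in any library, in CPM (a gene's UMIs on the counts-per-million scale of the class in the library, the unit of all levels below).

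The respiratory chain sits in the inner mitochondrial membrane, where complexes I to IV pass electrons from NADH and succinate to oxygen and pump protons, and ATP synthase (complex V) uses the proton gradient to make ATP. A few core subunits are encoded by the mitochondrial genome (mt: genes here) and all the others, complex II and cytochrome c included, by the nucleus. The tissue combines disc epithelium with the adepithelial myoblasts, the precursors of the adult flight muscles, a tissue rich in mitochondria once it has differentiated.

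All libraries came from larvae that were raised at 25C, taken in the third instar at the wandering stage, and carried P{1151-GAL4}, a driver active in the myoblasts. In 4 libraries the driver was alone (1151-GAL4, replicates 1 to 4). In 4 it was combined with P{VALIUM20-mCherry}attP2, an RNAi line without a target in the fly (1151>mCherry-RNAi, replicates 1, 5, 6 and 7), and the study treats both stocks as wild type. In 3 libraries it was combined with P{TRiP.Ama_HMS00297}attP2, which targets Amalgam (1151>Ama-RNAi, replicates 1, 4 and 5). The wing pouch was cut away and the remaining notum and hinge dissociated with trypsin and collagenase. The labels do not say how many discs or animals made a library, so the spread between libraries may be partly technical.

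Of the barcodes, 26085 had 200 to 2500 detected genes. A barcode was called a myoblast when it held at least 2 UMIs (unique transcript molecules) of Him, zfh1, twi and CG9650 together and more than 2 times as many as of Fas3, grh, ImpE1 and ImpE2, an epithelial cell in the reverse case, and a tracheal cell with at least 2 UMIs of trh and Cht5. This gave 5134 myoblasts, 10092 epithelial cells and 114 tracheal cells in the wild-type libraries, and 53, 2714 and 11 in those labelled 1151>Ama-RNAi. Wild-type libraries held 1335977 to 10548893 UMIs, and median UMIs per cell ran from 515 to 937 in myoblasts and from 555 to 1251 in epithelium. A gene was called when its adjusted p was below 0.05. Of markers the rule did not use, 5 of 5 for myoblasts were called higher in the myoblasts of wild-type libraries and 5 of 5 for epithelium lower. In libraries with at least 10 cells of a class, those labelled 1151>Ama-RNAi included, 5 fat body genes summed to at most 13.7 CPM in any class. There 4 genes of neurons and glia summed to 47.7 to 163 CPM in myoblasts and 52.3 to 142 CPM in epithelium. Haemocyte genes (5) summed to 7.99 to 95.3 CPM in myoblasts and 22.3 to 39.1 CPM in epithelium. Genes of differentiated muscle (5) summed to 8.18 to 143 CPM in myoblasts and 12.5 to 70.3 CPM in epithelium. In the wild-type libraries alone, the muscle sum in myoblasts was 0.79-fold that in epithelium (mean log2 ratio -0.34 ± 0.60, SD), higher in 2 of 8. Neither of the differentiated muscle genes that could be tested was called between these classes.

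By the Ensembl annotation of BDGP6, the build the submitters' notes name, the 5 ATP synthase genes lie at 3L:9729999-9731224 on the plus strand (ATPsyn-b), 3R:23355220-23356064 on the minus strand (ATPsyn-Cf6), 3R:19095000-19096271 on the plus strand (ATPsyn-d), 4:1031484-1034917 on the plus strand (ATPsyn-beta) and 3R:29747704-29749163 on the minus strand (ATPsyn-gamma). SdhC lies at 3R:11208887-11209849 on the minus strand, and SdhA and SdhB are on arm 2R. Drop-seq reads transcripts from their 3' end, so a gene's counts come from its last part only. In the wild-type libraries a myoblast or an epithelial cell held a median of 1 or 2 UMIs of the 8 members together, and all comparisons below rest on sums over the cells of a library.

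The first comparison set myoblasts beside epithelium within each of the 8 wild-type libraries. Of the 8 members, 4 were called higher in myoblasts (ATPsyn-d, SdhB, ATPsyn-b and ATPsyn-beta) and 0 lower, where 19.3% of the 6184 genes tested were called higher and 22.9% lower. All 8 members passed the filter on low counts, no other member had an unadjusted p under 0.05, and DESeq2 called 4 higher and 0 lower. The median log2 fold change was 0.20 over the members and -0.01 over all genes tested. The members were called alike in direction but by modest amounts, and for each of the 8 the ranges of the libraries overlapped between the classes.

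ATPsyn-d, a subunit of the peripheral stalk that holds the catalytic head of ATP synthase still, ranged from 172 to 326 CPM in epithelium (median 244) and from 237 to 445 CPM in myoblasts (median 348). Means were 243 ± 57.3 and 346 ± 68.5 CPM (SD, n = 8), and myoblasts were higher in 8 of 8 libraries. The log2 fold change was 0.47 (SE 0.086, adjusted p = 6.2e-06, edgeR's quasi-likelihood test, Benjamini-Hochberg over all genes tested).

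ATPsyn-b, another subunit of the peripheral stalk, ranged from 188 to 310 CPM in epithelium (median 253) and from 277 to 421 CPM in myoblasts (median 307), with means of 254 ± 40.2 and 320 ± 49.3 CPM (SD, n = 8). Myoblasts were higher in 7 of 8 libraries, 1151-GAL4 replicate 2 being the exception. The log2 fold change was 0.32 (SE 0.085, adjusted p = 0.0015, edgeR's quasi-likelihood test, Benjamini-Hochberg). Without the library as a block the call was lost, at an adjusted p of 0.068 in the same edgeR test.

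ATPsyn-beta, the catalytic subunit of the head, ranged from 267 to 374 CPM in epithelium (median 316) and from 288 to 506 CPM in myoblasts (median 369). The means were 320 ± 33.2 and 374 ± 71.2 CPM (SD, n = 8), the difference was positive in 7 of 8 libraries, and the log2 fold change was 0.25 (SE 0.081, adjusted p = 0.0094, edgeR's quasi-likelihood test, Benjamini-Hochberg). This was the least stable of the 4 calls: the adjusted p of the edgeR test was 0.052 without 1151-GAL4 replicate 2 or without replicate 3, 0.071 without replicates 3 and 4, 0.13 with no filter on low counts, 0.26 without the library as a block and 0.40 in the 1151>mCherry-RNAi libraries alone.

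The remaining ATP synthase members did not pass the test. ATPsyn-gamma, the rotor shaft inside the head, ranged from 159 to 281 CPM in epithelium (median 242) and from 181 to 312 CPM in myoblasts (median 293), a log2 fold change of 0.14 (SE 0.088, adjusted p = 0.20, edgeR's quasi-likelihood test, Benjamini-Hochberg). ATPsyn-Cf6 (coupling factor 6, of the peripheral stalk) ranged from 228 to 397 CPM in epithelium (median 352) and from 254 to 392 CPM in myoblasts (median 366), a log2 fold change of 0.10 (SE 0.081, adjusted p = 0.36, same edgeR test). Both were higher in myoblasts in 6 of 8 libraries.

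The 3 members of complex II, which links the tricarboxylic acid (TCA) cycle to the chain by oxidizing succinate, did not move together. SdhB, the iron-sulfur subunit, ranged from 26.4 to 71.7 CPM in epithelium (median 51.8) and from 60.1 to 115 CPM in myoblasts (median 68.8), with means of 50.2 ± 12.6 and 76.3 ± 19.0 CPM (SD, n = 8). It was higher in myoblasts in 8 of 8 libraries, with a log2 fold change of 0.51 (SE 0.12, adjusted p = 0.00043, edgeR's quasi-likelihood test, Benjamini-Hochberg).

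SdhA, the flavoprotein that binds succinate, ranged from 37.0 to 74.1 CPM in epithelium (median 48.9) and from 27.4 to 81.7 CPM in myoblasts (median 45.4). SdhC, a membrane anchor, ranged from 37.0 to 72 CPM in epithelium (median 49.4) and from 18.2 to 63.9 CPM in myoblasts (median 43.8). Neither passed the test: the log2 fold changes were -0.01 (SE 0.14, adjusted p = 0.98) for SdhA and -0.03 (SE 0.13, adjusted p = 0.87) for SdhC by edgeR's quasi-likelihood test, Benjamini-Hochberg. Whether SdhB differed from SdhA and SdhC in its change was not tested.

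**Figure D1:**
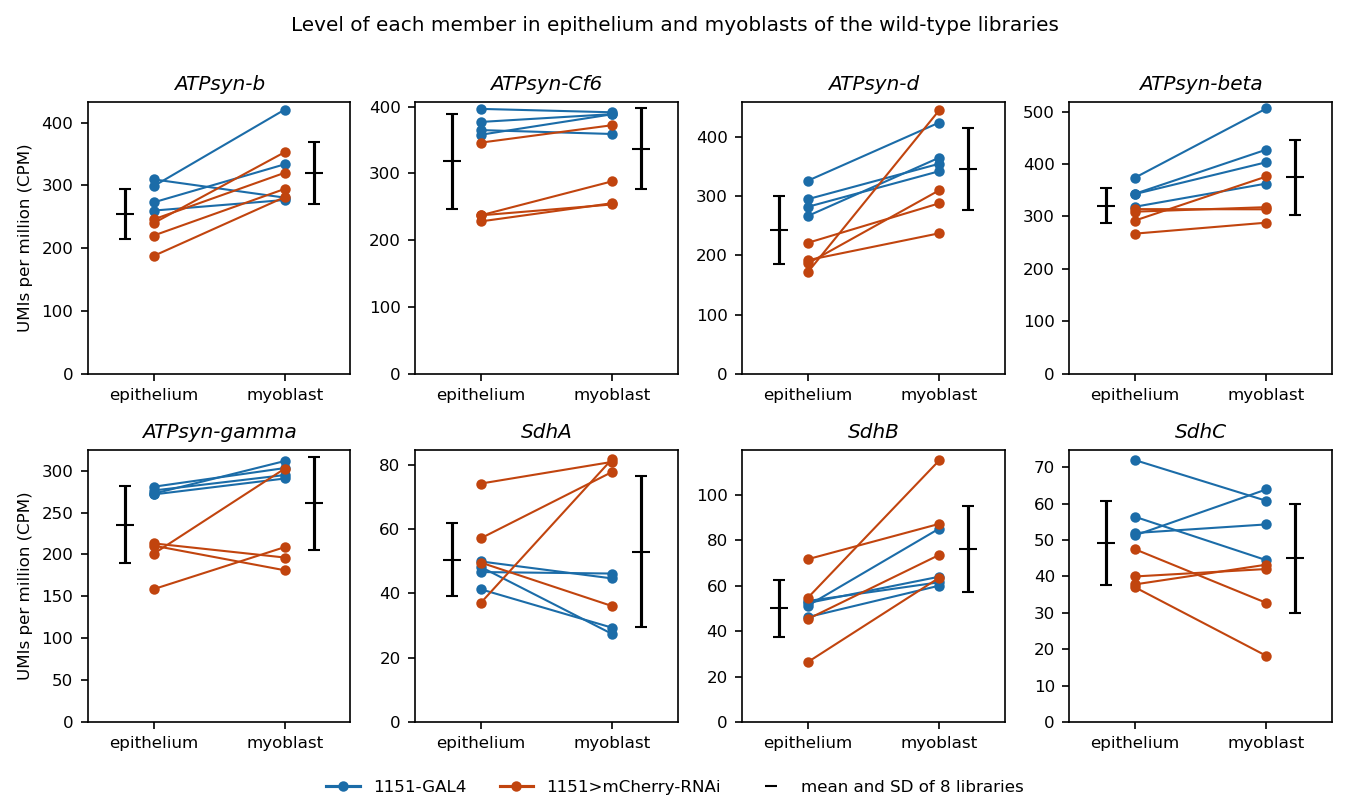
Level of each member in CPM (vertical axis, from 0) in epithelium and myoblasts, with a line for each of the 8 wild-type libraries (blue, 1151-GAL4; red, 1151>mCherry-RNAi) and the mean and SD in black. The lines of ATPsyn-d and SdhB rise in 8 of 8 libraries, whereas those of SdhA and SdhC have no common direction (3 and 4 of 8 rise).

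Across the whole chain, 70 of the 71 subunits could be tested, and 42 were called higher in myoblasts and 0 lower, which is 60% against the 19.3% and 22.9% of all genes given above. The median log2 fold change of the 70 was 0.31, with a range of -0.09 to 1.06. At an unadjusted p under 0.05 there were 45, none of them lower, and DESeq2 called 35 higher and 0 lower. The count was 14 without the library block, 23 in the 1151>mCherry-RNAi libraries alone and 26 with no filter on low counts. The subunit left untested, CG15434 (ND-B8 of complex I), had too few UMIs. Called subunits made up 15 of 33 in complex I, which takes electrons from NADH, 1 of 4 in complex II, 7 of 9 in complex III, 8 of 10 in complex IV and 10 of 13 in complex V, and cytochrome c itself was called. Counted without the 8 members, 38 of 62 subunits were called higher, or 61.3%.

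The largest changes were in cytochrome c and complex IV rather than in the members. Cyt-c-p, the cytochrome c that carries electrons from complex III to complex IV, ranged from 54.8 to 114 CPM in epithelium (median 75.5) and from 99.8 to 238 CPM in myoblasts (median 158). The classes overlapped across libraries, yet myoblasts were higher in 8 of 8, with a log2 fold change of 1.06 (SE 0.10, adjusted p = 7.2e-14, edgeR's quasi-likelihood test, Benjamini-Hochberg). CoVa (COX5A), a subunit of cytochrome c oxidase, ranged from 145 to 177 CPM in epithelium (median 157) and from 238 to 405 CPM in myoblasts (median 340), so the classes did not overlap. Its log2 fold change was 1.03 (SE 0.091, adjusted p = 1.9e-15, edgeR's quasi-likelihood test, Benjamini-Hochberg).

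CG4769 (Cyt-c1), the haem subunit of complex III that hands electrons to cytochrome c, averaged 64.0 ± 20.4 CPM in epithelium and 108 ± 27.5 CPM in myoblasts (SD, n = 8), a log2 fold change of 0.74. The accessory complex I subunits CG8680 (ND-13A) and CG3192 (ND-ASHI) followed, at 0.70 and 0.66. CG8680 averaged 40.2 ± 8.77 and 69.2 ± 21.4 CPM and CG3192 49.2 ± 7.71 and 79.7 ± 13.7 CPM in epithelium and myoblasts (SD, n = 8), and only for CG3192 of these 3 did the libraries of the classes not overlap. All 3 were higher in myoblasts in 8 of 8 libraries. Their adjusted p-values were 7.6e-08, 5.0e-06 and 2.6e-06 in edgeR's quasi-likelihood test, Benjamini-Hochberg.

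Subunits that were not called included small rises and small falls, since 63 of the 70 had a log2 fold change above 0 and 42 were called. Among those with the most UMIs in their complex, CoVIb (COX6B) had a log2 fold change of 0.17, and Ucrh (UQCR-11), CG11455 (ND-15) and CG34439 (ND-MWFE) had -0.09, -0.04 and -0.04. SdhD, the second membrane anchor of complex II, listed as CG10219, had -0.02. Within complex II SdhB was thus the lone call of 4 subunits.

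**Figure D2:**
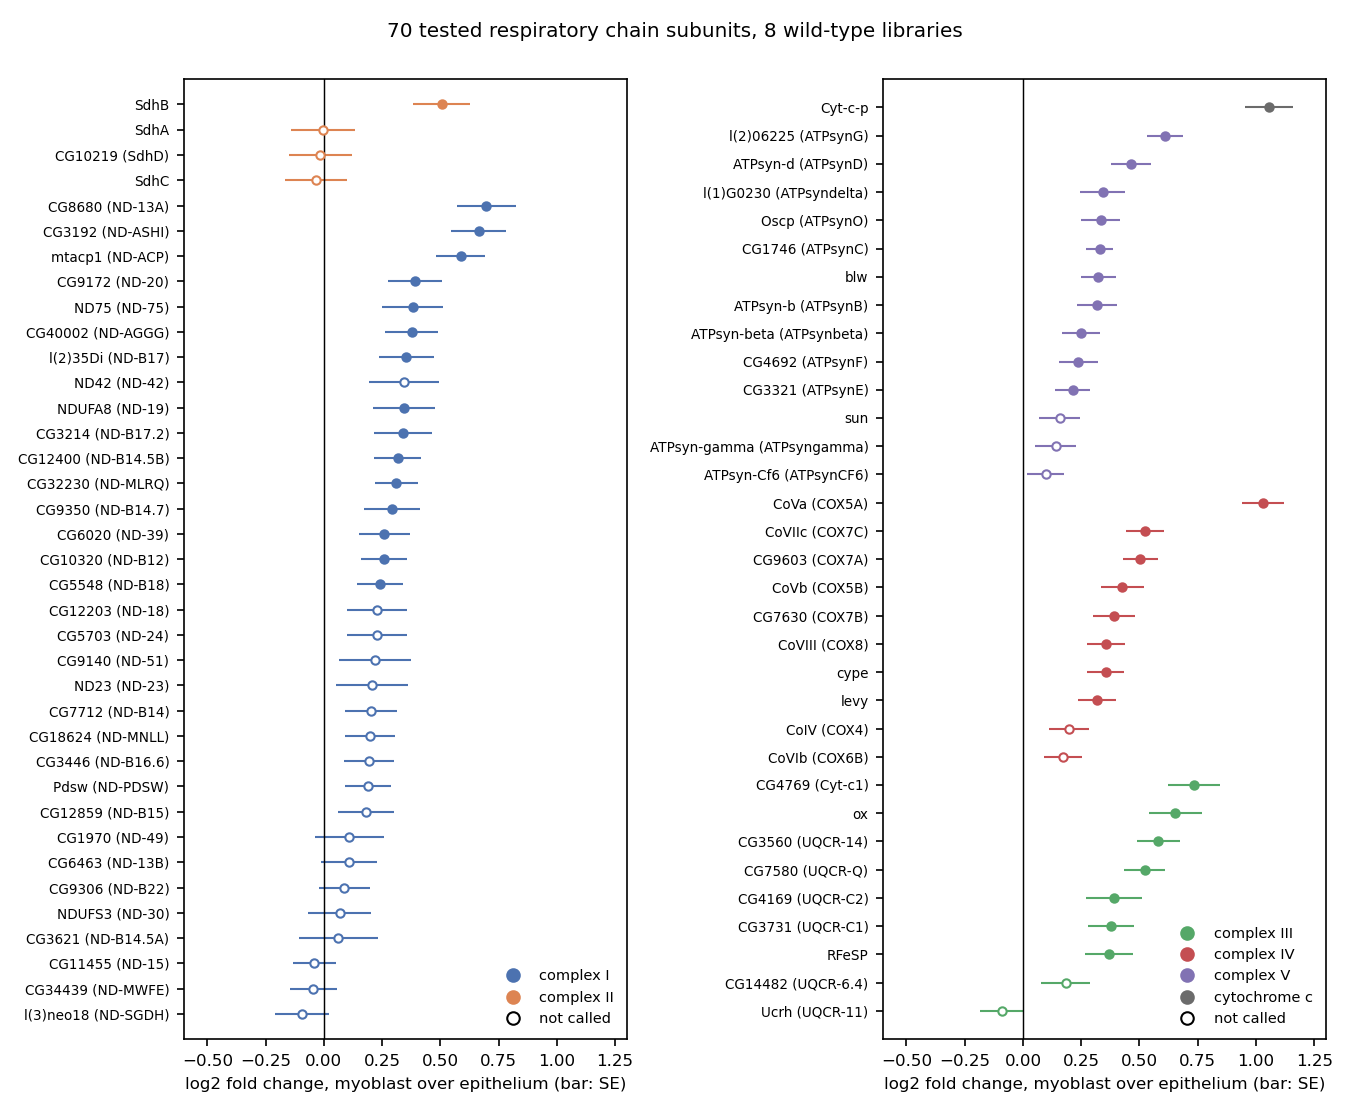
Log2 fold change of myoblasts over epithelium (horizontal axis; bars are SE) for the 70 tested subunits, by complex, with filled points for the 42 called and open points for the others; the RefSeq name stands in brackets. Of the 70 points, 63 lie to the right of 0, with Cyt-c-p (1.06) and CoVa (1.03) farthest out.

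Summed over its members, the level of a complex gives one value per library, reported as a description. The 8 members made up 0.152% ± 0.0225 of UMIs in epithelium and 0.181% ± 0.021 in myoblasts (SD, n = 8), and the 71 subunits 1.18% ± 0.15 and 1.46% ± 0.15. The subunit sum was higher in myoblasts in 8 of 8 libraries, by a mean log2 ratio of 0.32 ± 0.07 (SD), or 1.25-fold. By complex the mean log2 ratio was 0.22 for I, 0.38 for III, 0.39 for IV and 0.30 for V, each positive in 8 of 8 libraries, and 0.17 ± 0.28 (SD) for II, positive in 6 of 8. Barcodes with fewer than 200 genes, a fraction that can include free RNA, held 0.738% to 1.46% of their UMIs in the 71 subunits (median 1.129%). The part of free RNA in the difference between classes was not tested.

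Other gene groups moved with the chain or against it. Of 84 ribosomal protein genes tested, 70 were called higher in myoblasts and 0 lower, with a median log2 fold change of 0.23, so a small rise was shared by another large group of genes for basic cell functions. Its part in the rise of the subunits was not tested. Of 11 heat shock genes, 9 were called lower and 1 higher, with a median of -1.05, and these genes summed to 10750 to 24962 CPM in myoblasts and 19759 to 45712 CPM in epithelium. Of 10 genes tested from a list of TCA cycle and linked enzymes, 6 were called higher and 1 lower (median 0.44). The 2 largest rises were those of Mdh2, a malate dehydrogenase (1.03), and kdn, the citrate synthase (0.81), and the fall was that of Idh, an isocitrate dehydrogenase (-1.01). The summed level of this list in myoblasts was 1.01-fold that of epithelium (mean log2 ratio 0.02 ± 0.10, SD), higher in myoblasts in 4 of 8 libraries.

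Of 10 genes for mitochondrial carriers and biogenesis, 5 were called higher and 0 lower (median 0.26): TFAM, which packages mitochondrial DNA (1.01), mtSSB, which binds it as a single strand during replication (0.79), srl, a PGC-1 coactivator (0.64), sesB, the ADP/ATP carrier (0.27), and porin, the channel of the outer membrane (0.27). Of 12 glycolysis genes, 7 were called lower and 2 higher (median -0.37). Pfk, the phosphofructokinase, had a log2 fold change of -1.16, Gapdh2 of -1.03 and Ald, the aldolase, of -0.88, whereas Hex-A, a hexokinase, and Gapdh1 had 0.45 and 0.44.

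**Figure D3:**
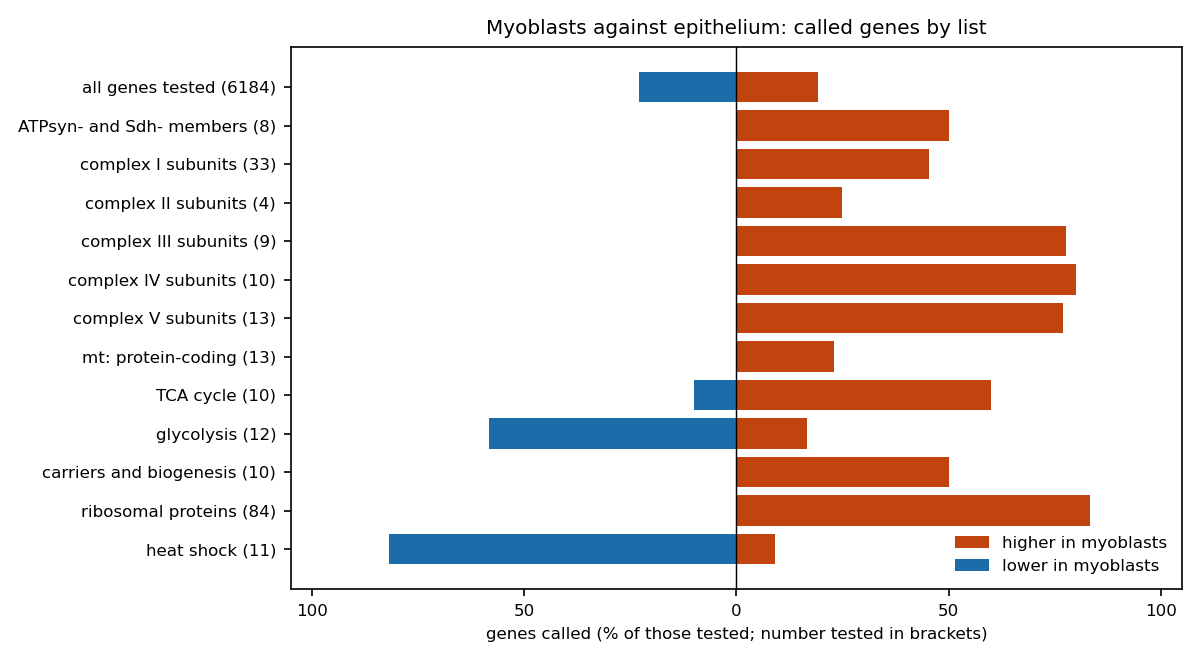
Percent of the genes tested in each list that were called higher (red, to the right) or lower (blue, to the left) in myoblasts than in epithelium, with the number tested in brackets. The members, complexes I to V, the mt: protein-coding genes, the carriers and biogenesis genes and the ribosomal proteins have calls to the right only. Glycolysis and heat shock genes lie mostly to the left.

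The transcripts of the mitochondrial genome were measured in the same cells. Their share of UMIs was 3.0% ± 1.47 in myoblasts and 3.10% ± 1.32 in epithelium (SD, n = 8), a difference of -0.095 percentage points, with myoblasts higher in 2 of 8 libraries (two-sided exact sign-flip permutation test, p = 0.367, where the smallest p possible is 0.00781; adjusted over 4 tests of this share, 0.873). Without 1151>mCherry-RNAi replicate 5, one of the 2 libraries in which myoblasts were higher, the difference was -0.178 points (unadjusted exact p = 0.0313).

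The share varied far more between libraries than between classes. In epithelium it was 2.38%, 2.35%, 3.37% and 3.25% in 1151-GAL4 replicates 1 to 4 and 0.678%, 4.45%, 4.91% and 3.37% in 1151>mCherry-RNAi replicates 1, 5, 6 and 7. In the myoblasts of the same libraries it was 1.88%, 2.13%, 3.12% and 3.07%, then 0.650%, 4.94%, 4.94% and 3.26%. Replicate 1 of 1151>mCherry-RNAi stood far below the others in both classes.

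By gene, 3 of the 13 protein-coding mt: genes were called higher in myoblasts and 0 lower (median 0.06). Of all genes tested 19.3% were called higher and 22.9% lower, so the share called higher was near that of all genes. The 3 were mt:CoI, the core subunit of complex IV (0.18), and mt:ND5 and mt:ND6 of complex I (0.21 and 0.28). Both mitochondrial rRNAs were called lower, mt:lrRNA at -0.24 (adjusted p = 8.2e-05) and mt:srRNA at -0.77 (adjusted p = 1.6e-10, both by edgeR's quasi-likelihood test, Benjamini-Hochberg). Summed, the protein-coding mt: genes had a mean log2 ratio of myoblasts to epithelium of 0.06 ± 0.10 and were higher in 6 of 8 libraries, and the mt: rRNAs had one of -0.26 ± 0.28 and were higher in 1 of 8. A difference between these ratios and that of the nuclear subunits was not tested.

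Across libraries, the share of the 71 subunits and that of mt: genes showed no correlation past the threshold in either class. Over the epithelium of 11 libraries, Pearson's r was -0.21 (permutation p = 0.53) and Spearman's rho -0.21 (permutation p = 0.54), both 0.72 after adjustment over 4 such relations. The points share libraries and denominators, and r was -0.65 without the 2 libraries farthest from the median share, so its size rested on them.

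**Figure D4:**
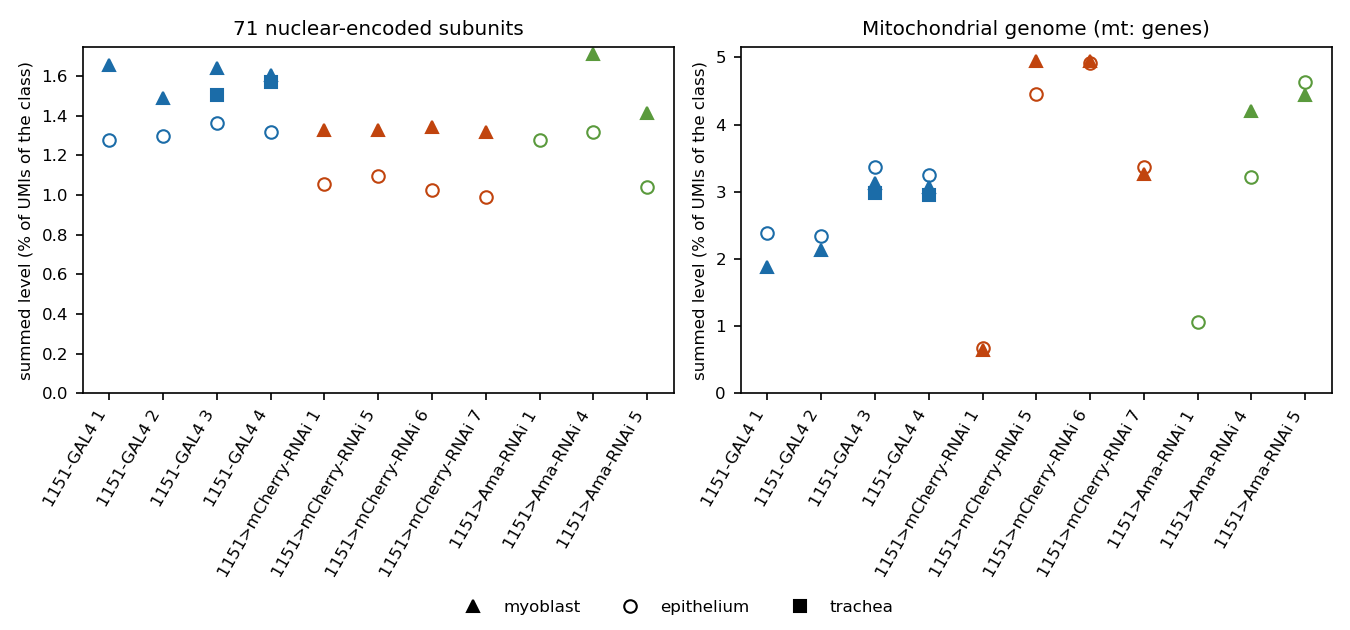
Summed level of the 71 nuclear-encoded subunits (left) and of the mt: genes (right) as percent of the UMIs of a class, by library, for classes with at least 10 cells (triangles, myoblasts; open circles, epithelium; squares, trachea). In the left panel the triangles stand above the circles in all 8 wild-type libraries, and in the right panel libraries run from 0.650% to 4.94% with the classes of one library close together.

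The 2 wild-type stocks were then compared, since the study pools them. In epithelium the 71 subunits made up 1.31% ± 0.0374 of UMIs with the driver alone and 1.04% ± 0.0456 with mCherry-RNAi (SD, n = 4 each), and no mCherry-RNAi library reached the lowest of the driver alone (0.988% to 1.10% against 1.28% to 1.36%). By gene, 0 of the 8 members were called (edgeR; 2 at an unadjusted p under 0.05, and 1 by DESeq2), where 6.65% of 5305 genes were called higher and 3.75% lower. For 6 of the 8 members, however, every mCherry-RNAi library lay below every library of the driver alone, as did 9.75% of all genes tested (6.5% lay above without overlap). The median log2 fold change was -0.34 over the members and -0.01 over all genes.

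ATPsyn-d stood at 267, 282, 326 and 295 CPM in the epithelium of 1151-GAL4 replicates 1 to 4 and at 172, 221, 186 and 192 CPM in that of 1151>mCherry-RNAi replicates 1, 5, 6 and 7. Its log2 fold change was -0.53 (SE 0.18, adjusted p = 0.062, edgeR's quasi-likelihood test, Benjamini-Hochberg), and DESeq2 gave an adjusted p of 0.034. ATPsyn-gamma stood at 273, 272, 276 and 281 CPM against 159, 211, 201 and 213 CPM, with a log2 fold change of -0.41 (SE 0.17). For both genes the 2 stocks did not overlap.

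ATPsyn-b stood at 299, 310, 273 and 260 CPM against 188, 246, 240 and 220 CPM, and ATPsyn-beta at 374, 343, 343 and 319 CPM against 309, 314, 267 and 292 CPM. ATPsyn-Cf6 stood at 377, 365, 358 and 397 CPM against 346, 228, 237 and 237 CPM, where the high value of 1151>mCherry-RNAi replicate 1 set it apart from its group. Without this replicate, ATPsyn-Cf6 and ATPsyn-d were called, with log2 fold changes of -0.66 and -0.54 (adjusted p = 0.016 and 0.041, edgeR's quasi-likelihood test, Benjamini-Hochberg).

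SdhC stood at 51.3, 56.4, 72 and 51.9 CPM in the driver alone against 37.0, 40.0, 37.8 and 47.4 CPM in mCherry-RNAi, again without overlap. SdhA and SdhB overlapped between the stocks. Their epithelial means were 46.5 ± 3.7 and 54.4 ± 15.5 CPM for SdhA and 50.8 ± 3.2 and 49.6 ± 18.9 CPM for SdhB in the driver alone and in mCherry-RNAi (SD, n = 4). Complex II thus held the 2 members without a separation between the stocks.

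Of the 70 subunits tested in epithelium, 4 were called lower in mCherry-RNAi and 0 higher: CG4692 (ATPsynF, of the membrane part of ATP synthase; -0.84), CG4769 (-0.67), CG5548 (ND-B18; -0.64) and CG9172 (ND-20; -0.62). This count ranged from 0 to 15 when 1 library was left out: it was 0 without replicate 2, 3 or 4 of 1151-GAL4 or replicate 6 or 7 of 1151>mCherry-RNAi, 1 without replicate 1 of 1151-GAL4 or replicate 5 of 1151>mCherry-RNAi, and 15 without replicate 1 of 1151>mCherry-RNAi. A total of 26 of the 70 lay lower without overlap, or 37.1%, as did 49 of 84 ribosomal protein genes, or 58.3%. The ribosomal protein genes had 7 calls lower and a median of -0.41. The libraries of the 2 stocks also differed in depth, with a median of 1000 to 1251 UMIs per epithelial cell with the driver alone and 555 to 924 with mCherry-RNAi, and stock and depth cannot be told apart. Of 11 heat shock genes, 4 were called higher in mCherry-RNAi and 0 lower (median 0.12), and their sum was 26299 to 45712 CPM against 19759 to 21781 CPM with the driver alone. Their part in the lower level of the subunits was not tested.

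In myoblasts, 0 members were called between the stocks (edgeR; 5 at an unadjusted p under 0.05, and 0 by DESeq2), where 8.64% of 2522 genes were called higher in mCherry-RNAi and 3.85% lower. Of those 5, SdhA was higher in mCherry-RNAi, with a log2 fold change of 0.74 (SE 0.30). SdhC, ATPsyn-Cf6, ATPsyn-beta and ATPsyn-gamma were lower. SdhC alone separated the stocks, at 63.9, 44.5, 60.8 and 54.3 CPM against 18.2, 42, 43.2 and 32.7 CPM, as did 7.61% of all genes lower and 9.6% higher. Of the 69 subunits tested, 2 (2.9%) were called lower and 0 higher, a share below the 3.85% of all genes. The 2 were CG4692 (-0.92) and CG9603 (COX7A, -0.62). This count was 1 to 10 when 1 library was left out, with 10 without 1151>mCherry-RNAi replicate 1, 4 without 1151-GAL4 replicate 2, and 1 without 1151-GAL4 replicate 1, 3 or 4 or 1151>mCherry-RNAi replicate 6 or 7. Of 8 heat shock genes tested in myoblasts, 2 were called higher in mCherry-RNAi and 0 lower, and their part was not tested. Whether the difference between myoblasts and epithelium itself differed between the stocks was tested as an interaction: 0 of 8 members and 0 of 70 subunits were called (edgeR; 0 and 2 at an unadjusted p under 0.05; not run in DESeq2), against 40 of 6184 genes.

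The share of mt: genes in epithelium was 2.84% ± 0.55 with the driver alone and 3.35% ± 1.90 with mCherry-RNAi (SD, n = 4), which overlapped (two-sided exact permutation test, p = 0.686, smallest possible 0.0286, adjusted 0.873).

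**Figure D5:**
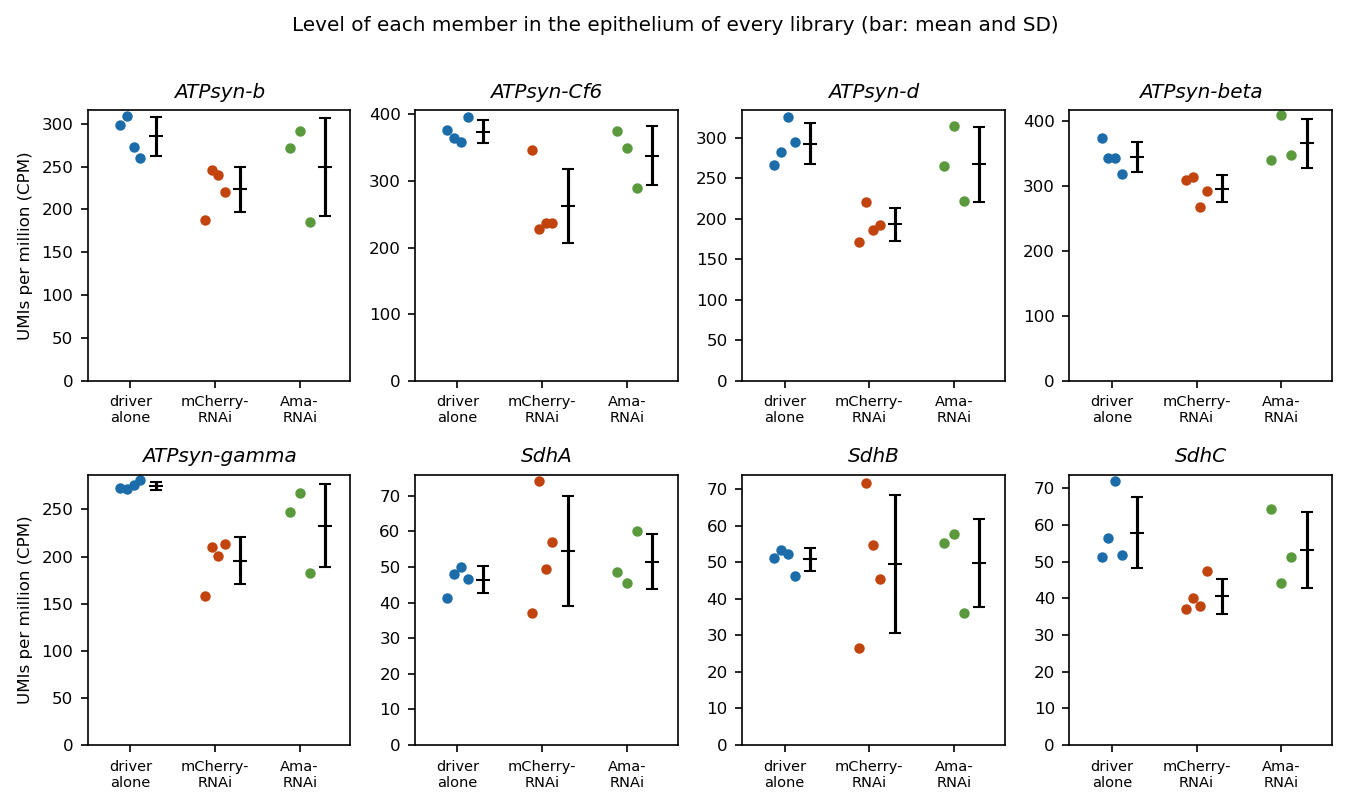
Level of each member in CPM (vertical axis, from 0) in the epithelium of every library, by genotype, with the mean and SD in black. For 6 of the 8 members the 4 mCherry-RNAi libraries lie below the 4 of the driver alone, and the 3 libraries labelled 1151>Ama-RNAi overlap the wild-type range.

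The libraries labelled 1151>Ama-RNAi carry an RNAi line against Ama, a secreted cell adhesion protein, under the myoblast driver. Ama itself was not lower in their myoblasts: it stood at 381 CPM (8 UMIs) in replicate 4 and 217 CPM (7 UMIs) in replicate 5, against 36.3 to 225 CPM in the wild-type libraries. The log2 fold change was 0.45 (SE 0.52, adjusted p = 0.80, edgeR's quasi-likelihood test, Benjamini-Hochberg). From so few UMIs the counts do not decide whether Ama was lowered. The study reports Ama expression as lost in its own myoblasts of this genotype. It also reports a viability defect with another RNAi line and partial rescue of the lethality by added Ama. The number of myoblasts stood apart in these libraries, with 6, 14 and 33 in replicates 1, 4 and 5 against 144 to 1948 in wild-type libraries. Of 5 myoblast markers outside the class rule, 2 were called lower in the myoblasts of replicates 4 and 5 than in wild type, and 0 higher. Their median log2 fold change was -1.99, and 0.156% of the 3195 genes tested were called lower. How far these cells match wild-type myoblasts was not tested.

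In epithelium, 0 of the 8 members were called between the 3 libraries labelled 1151>Ama-RNAi and the 8 wild-type libraries (edgeR; 0 at an unadjusted p under 0.05, and 0 by DESeq2), where 0.0343% of 5824 genes were called in each direction. The log2 fold changes of the members ran from -0.03 to 0.18, and the libraries overlapped for every member. ATPsyn-beta, at 0.18 (SE 0.19), was the highest. It stood at 339, 409 and 348 CPM in replicates 1, 4 and 5, against 267 to 374 CPM in wild-type libraries (median 316). SdhB stood at 55.4, 57.9 and 36.0 CPM against 26.4 to 71.7 CPM (median 51.8).

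ATPsyn-d stood at 265, 314 and 222 CPM in the same 3 libraries, against 172 to 326 CPM (median 244), and ATPsyn-b at 272, 292 and 185 CPM, against 188 to 310 CPM (median 253). Replicate 5 was the lowest of the 3 for both genes. Of the 70 subunits, 0 were called (edgeR; 2 at an unadjusted p under 0.05, and 0 by DESeq2), with a median log2 fold change of 0.01. Together the 71 made up 1.21% ± 0.149 of epithelial UMIs (SD, n = 3), against 1.18% ± 0.15 in wild type. The share of mt: genes was 1.06%, 3.23% and 4.63% in replicates 1, 4 and 5 (two-sided exact permutation test against wild type, p = 0.873, smallest possible 0.00606, adjusted 0.873).

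In myoblasts the comparison rested on replicates 4 and 5, with 47 cells. Again 0 members were called (edgeR; 1, ATPsyn-Cf6, at an unadjusted p under 0.05, and 0 by DESeq2), where 0.282% of 3195 genes were called higher and 0.156% lower. The median log2 fold change of the members was -0.42, beside -0.34 over all genes. The median over all genes moved with the setting. It was -0.17 with DESeq2, 0.06 without TMM and -0.10 with the 1151>mCherry-RNAi libraries only as control. The cause of this shift was not tested. ATPsyn-Cf6 stood at 238 and 247 CPM, under the 254 to 392 CPM of wild type, with a log2 fold change of -0.89 (SE 0.42, adjusted p = 0.38, edgeR's quasi-likelihood test, Benjamini-Hochberg). SdhC stood at 95.3 and 124 CPM, above the 18.2 to 63.9 CPM of wild type, from 2 and 4 UMIs. At this depth a difference in most members was not detectable.

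Tracheal cells, which line the air tubes attached to the disc, could be compared within 1151-GAL4 replicates 3 and 4 only, with 35 and 46 cells, of which 29 and 38 also met the epithelial rule. Against epithelium 0 members were called (edgeR; 0 at an unadjusted p under 0.05, and 0 by DESeq2), where 1.38% of 6831 genes were called higher and 2.02% lower. ATPsyn-Cf6 stood at 392 and 458 CPM in trachea against 358 and 397 CPM in epithelium, and SdhA at 73.0 and 68.5 CPM against 49.9 and 46.6 CPM. The log2 fold change of SdhA was 0.49 (SE 0.37, adjusted p = 0.72, edgeR's quasi-likelihood test, Benjamini-Hochberg).

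Of the 70 subunits, 2 were called higher in trachea and 0 lower: Cyt-c-p, at 193 and 214 CPM against 114 and 99.2 CPM (log2 fold change 0.89, SE 0.22, adjusted p = 0.0032), and levy, a subunit of cytochrome c oxidase, with a log2 fold change of 0.44 (SE 0.13, adjusted p = 0.026, both by edgeR's quasi-likelihood test, Benjamini-Hochberg). DESeq2 called 0 of the 70, and the count was also 0 with at least 3 marker UMIs. Of 5 myoblast markers outside the class rule, 2 were called higher in trachea than in epithelium and 0 lower. Together they stood at 498 and 660 CPM in trachea against 237 and 292 CPM in epithelium, 2.18-fold higher, and their part in the rise of Cyt-c-p and levy was not tested. Tracheal cells had median depths of 3766 and 4010 UMIs against 1048 and 1000 in the epithelium of the same libraries, and the part of depth was not tested.

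Against myoblasts, 0 members were called (edgeR; 1, ATPsyn-d, at an unadjusted p under 0.05, and 0 by DESeq2), where 10.4% of 5164 genes were called higher in trachea and 8.33% lower. ATPsyn-d stood at 299 and 351 CPM in trachea and at 424 and 355 CPM in myoblasts, and its log2 fold change was -0.37 (SE 0.17, adjusted p = 0.13, edgeR's quasi-likelihood test, Benjamini-Hochberg). With classes of at least 5 cells, which brought in 7 libraries, it was called, at -0.51 (adjusted p = 0.022, same edgeR test). Of the 70 subunits, 4 (5.71%) were called lower in trachea and 0 higher, a share below the 8.33% of all genes. The 4 were CoVa (-0.87), CG9603 (-0.72), CoVIIc (COX7C, -0.56) and the gene that RefSeq names ATPsynG (-0.54). This count was 1 with DESeq2, 0 with at least 3 marker UMIs, 2 without TMM or without the library block, 10 with no filter on low counts and 11 with classes of at least 5 cells. Ribosomal protein genes were lower in trachea too, with 70 of 84 called lower and a median of -0.29. The median of all genes was -0.03, and 0.11 without TMM. The share of mt: genes was 2.97% ± 0.02 in trachea and 3.31% ± 0.084 in epithelium (SD, n = 2, exact sign-flip permutation p = 0.5, the smallest possible).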

How the data were processed

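Drop-seq was run on 11 libraries of cells from dissociated wing discs. The deposited values are counts: whole UMIs per gene and barcode, 1 table per library, which the authors made with Drop-seq tools 1.13 and Ensembl 90 annotation (the study's methods). The submitters' processing notes name STAR, FastQC and BDGP6. These counts were not normalized, no replicates were pooled, and 19 barcodes occurred in 2 libraries.

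UMIs were summed per library and class over barcodes of 200 to 2500 genes. A barcode meeting the tracheal rule was counted as tracheal only. No doublet caller was run, and barcodes with a marker ratio of 2 or less stayed unclassed. Classes with fewer than 10 cells in a library were left out of tests. Sums were tested with edgeR 4.0.16 (R 4.3.3; glmQLFit, glmQLFTest, TMM, filterByExpr) over all genes that passed the filter, with Benjamini-Hochberg adjustment, a threshold of 0.05 and the library as a block within libraries. DESeq2 1.42.0 was an alternative. Single shares were tested by exact permutation over libraries (scipy 1.17.1), and correlations across libraries by permutation. The members, lists, classes and tests were chosen with earlier results of these data known. For the subunits under other names the old symbols were matched to RefSeq (Release 6). Named are all 8 members and, of the other subunits, the 5 with the largest called rise and fall per comparison and the 3 with the most UMIs per complex, as far as a value adds to the text.

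On simulated counts with 200 changed genes, changes of 1 and 2 on the log2 scale were recovered in 82% and 93% of cases for myoblasts against epithelium (6184 genes), 60% and 92% for mCherry-RNAi against the driver alone in epithelium (5305 genes), 52% and 96% for Ama-RNAi in epithelium (5824 genes), 1% and 18% for Ama-RNAi in myoblasts (3195 genes), and 18% and 62% for trachea against epithelium (6831 genes). UMIs collapse PCR copies but not free RNA caught with a cell, which can add to low counts, and the precision of a value is set by its UMIs. Alternatives were another normalization, no filter on low counts, 3 marker UMIs, limits on mt:, heat shock and rRNA shares, each stock alone, and leaving out each library. Cells of 500 to 1500 UMIs, classes of at least 5 cells and leaving out 1151-GAL4 replicates 3 and 4 together were chosen after seeing the data. No sequences are printed.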

Additional observations from a re-analysis of the deposited data

Results flagged for a closer look

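In 4 of 64 groups of 4 libraries tested, 1 library lay outside the spread of the other 3 by Dixon's criterion at 95%, and chance gives about 1 in 20 groups. In myoblasts, SdhB was 85.2 CPM in 1151-GAL4 replicate 1, against 60.05 to 64.0 CPM in the other 3 libraries of the stock. ATPsyn-Cf6 was 359 CPM in the myoblasts of 1151-GAL4 replicate 2, against 389 to 392 CPM. SdhA was 36.0 CPM in the myoblasts of 1151>mCherry-RNAi replicate 6, against 77.7 to 81.7 CPM. In epithelium, ATPsyn-Cf6 was 346 CPM in 1151>mCherry-RNAi replicate 1, against 228 to 237 CPM, and this library decides whether ATPsyn-Cf6 is called between the 2 wild-type stocks.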

How the results depend on the processing

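For myoblasts against epithelium, the counts of called members and subunits (4 and 42) became 3 and 26 with no filter on low counts, 2 and 14 with no replicate block (library), and 3 and 23 in the 1151>mCherry-RNAi libraries alone. They were 4 and 35 with DESeq2, and 3 to 4 and 32 to 43 with 1 library left out. For trachea against epithelium, the 2 subunits became 1 with no filter and 0 with DESeq2, 3 marker UMIs, no replicate block or at least 5 cells. For trachea against myoblasts, the 4 lower subunits became 1 with DESeq2, 2 (with 1 higher) without TMM, 10 with no filter, 0 with 3 marker UMIs, 2 with no replicate block and 11 with at least 5 cells, and 1 member was called with no filter and with at least 5 cells. Leaving out a library there leaves no residual degrees of freedom and was not run. For mCherry-RNAi against the driver alone in epithelium, 1 member was called with DESeq2 and without TMM, and 0 to 2 with 1 library left out; the 4 lower subunits became 7 without TMM, 1 with 3 marker UMIs and 0 to 15 with 1 library left out. In myoblasts the 2 lower subunits became 4 with no filter, with the study's limits on mt:, heat shock and 28S rRNA, and with 3 marker UMIs, and 1 to 10 with 1 library left out, when 0 to 1 members were called. The mt: difference between myoblasts and epithelium ran from -0.178 to -0.037 points with 1 library left out, with an unadjusted exact p of 0.0313 without 1151>mCherry-RNAi replicate 5 and above 0.05 in the others. The cause of these changes was not tested.

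Replicate numbers in the titles are shared by Ama-RNAi and wild-type libraries. Deviations of libraries with the same title number correlated at 0.25, -0.01 and -0.16. Libraries with different numbers were not set beside these values, and the replicate numbers used above were not checked in this way. The values therefore do not decide whether libraries are paired. With a replicate block by title number 0 members and 0 subunits were called in epithelium and 0 in myoblasts. No call changed direction, and 50 of 717 uncalled member values had another sign. With 14 and 33 Ama-RNAi myoblasts in the libraries tested, 18% of simulated log2 changes of 2 were recovered. The changed genes were drawn from all genes tested, and recovery for the members alone was not simulated.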
